A study of Xenopus laevis with 12 samples.

Results

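The collagens of fibrils, of the matrix around them and of basement membranes, together with the laminins, were measured by RNA sequencing in tadpole heads of the African clawed frog, Xenopus laevis. The members were all genes with a collagen chain or laminin chain symbol in the Xenopus_laevis_v10.1 gene table, apart from the cartilage collagens col2a1, col9a1, col9a2, col9a3, col10a1, col11a1, col11a2 and col27a1. That gave 56 genes of the 37018 in the count files, under 34 symbols, where the endings .L and .S mark homeologs, the pair of copies left by the species' genome duplication. Of these, 54 had enough counts to be tested. The .S copies of col17a1 and col6a6 did not, being at or near 0 in every library. Levels are in CPM, counts scaled to the size of the library.

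Fibrillar collagens (types I, III, V and XXIV here) assemble from 3 chains into the fibrils that carry load in skin, bone, tendon and cornea. Fibril-associated collagens decorate those fibrils, and type VI collagen forms beaded filaments between fibrils and cells. Basement membranes, the thin sheets beneath epithelia and around muscle and vessels, are built on a laminin polymer, itself made of an alpha, a beta and a gamma chain, and on a type IV collagen network. Many cells of the face make this matrix, among them cranial neural crest derivatives, skin and vessels.

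Thioridazine is an antipsychotic of the phenothiazine class, a dopamine receptor blocker. Embryos, per the labels' protocols, stood in 90 µM thioridazine at 18 °C from Nieuwkoop and Faber (NF) stage 14 to 26, and the treated heads came from tadpoles whose faces were malformed. The 4 groups were thioridazine heads and wildtype control heads at NF stage 45, and thioridazine heads and control heads at NF stage 47, with 3 libraries each. Replicates are labelled as biological without the clutch or the number of animals, so a p-value here measures only how these samples spread. Treated tadpoles were picked for the malformation, so the groups differ in drug and in that choice together.

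Libraries held 11998636 to 16933777 counts, and the members took between 0.860 and 1.47% of them. A coefficient of variation among the 3 libraries of a group had a median over the members of 17.6% in thioridazine and 13.6% in control heads at stage 45, and of 11.0% and 10.0% at stage 47. Marker lists were summed for 9 other cell types or tissues: cartilage genes summed to at least 1398 CPM and skeletal muscle genes to at least 3171 CPM in every library. Liver genes varied between libraries, with sums of 59.8 to 915 CPM. The stage 45 libraries numbered 2 stood apart in both groups, as described with the network collagens below.

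The first question was whether this matrix differed between malformed and control heads. No member passed the threshold of an adjusted p under 0.05 at either stage, over both stages together, or in the difference between stages. Groups did not overlap for 2 members at stage 45, col4a5.L and lama3.L, both higher in thioridazine heads. At stage 47 they did not overlap for lamb2.S, which was higher, and lama5.L, a laminin alpha chain of epithelial and vascular basement membranes, which was lower. Of all genes, 4.19% at stage 45 and 4.78% at stage 47 were higher without overlap, and 5.36% and 4.82% lower. These values are given below with their spread.

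At stage 45 edgeR's quasi-likelihood test with Benjamini-Hochberg adjustment called 0 of 54 members, where 0% of all 27050 genes tested were called. At an unadjusted p under 0.05 there were 2 members, against 5.33% of all genes, and DESeq2 called 0 (0.315% of all genes). The estimates of 35 members were above 0 (64.8%, against 53.3% of all genes), with a median log2 fold change of 0.084 against 0.015 over all genes. The 95% intervals of 52 members lay within a 2-fold change either way, and those of 32 within 1.5-fold. So changes of 2-fold or more lay outside the intervals of nearly all members, while smaller ones were within reach of this spread for many.

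Type I collagen is the main collagen of skin and bone. The alpha 1 chain copy col1a1.S (gene 380515) had 1259, 2154 and 1284 CPM in the thioridazine libraries of stage 45, against 948, 1285 and 1283 CPM in the control libraries. Its sister col1a1.L had 1206, 1866 and 1261 CPM, against 959, 1414 and 1274 CPM in controls. Thioridazine replicate 2 was the highest of the 6 libraries for both copies, and the other libraries of both groups overlapped. For col1a1.S the log2 fold change was 0.42 (SE 0.20, adjusted p = 0.948, edgeR).

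The same library led for the alpha 2 chain. The copy col1a2.L had 1355, 2274 and 1480.4 CPM in thioridazine heads, against 1019, 1662 and 1402 CPM in control heads, and col1a2.S had 417, 604 and 386 CPM, against 357, 519.7 and 417 CPM. Control replicate 2 was also the highest control library for both, so for these copies the libraries numbered 2 moved together. Type III collagen, which forms thin fibrils with type I in soft tissue, had that library highest in its .S copy and not in its .L copy. The copy col3a1.L had 477, 595 and 516 CPM in thioridazine heads, against 445, 619.8 and 602 CPM in controls. There control replicate 2 was the highest library, and the groups overlapped. The copy col3a1.S had 258, 329 and 288 CPM, against 213, 285 and 263 CPM in controls, with thioridazine replicate 2 the highest and overlap again.

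Groups were without overlap at stage 45 for 2 members, both higher in thioridazine heads, where 4.19% of all genes were higher without overlap and 5.36% lower. The first was col4a5.L, a type IV collagen alpha chain of basement membranes, with 343, 412 and 325 CPM in thioridazine heads, against 294, 255 and 306 CPM in controls. Its log2 fold change of 0.34 (SE 0.13) had the smallest p of the members, with an adjusted p of 0.763 from edgeR. The second was lama3.L, the laminin alpha chain that anchors skin cells to their basement membrane, with 19.6, 28.6 and 20.0 CPM, against 16.4, 18.3 and 19.4 CPM in controls (log2 fold change 0.33, SE 0.17, edgeR adjusted p = 0.989). In both genes thioridazine replicate 2 was again the highest library. Control replicate 2 was the lowest library for col4a5.L (255 CPM), and for lama3.L (18.3 CPM) it lay between the other controls.

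A further pair of genes stood high in that library. The type VI chain col6a5.S had 149, 257 and 165 CPM in thioridazine heads, against 116, 135 and 159.9 CPM in controls (log2 fold change 0.48, SE 0.19, edgeR adjusted p = 0.808). The transmembrane collagen col17a1.L, part of the hemidesmosomes that fix basal skin cells, had 178, 245 and 165 CPM, against 139.7, 146 and 179 CPM in controls (log2 fold change 0.34, SE 0.16, edgeR adjusted p = 0.945). The control library with the highest value, replicate 3, overlapped thioridazine values in each.

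The lower estimates with the smallest p at stage 45 were col4a2.S, lama4.L, col6a5.L, lamb2.S and col8a2.S, and none passed. The laminin alpha chain of vessel walls, lama4.L, had 55.2, 49.6 and 55.5 CPM in thioridazine heads, against 54.3, 58.0 and 61.7 CPM in controls (log2 fold change -0.12, SE 0.10, edgeR adjusted p = 1.00). The groups overlapped.

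Estimates for several of the marker lists also lay to one side at stage 45, though edgeR called none of the markers. Epidermis genes were higher in thioridazine heads for 9 of 10, with sums of 379 to 451 CPM, against 285 to 336 CPM in controls, and fibroblast genes for 10 of 10, with sums of 1001 to 1038 against 785 to 923 CPM. Liver genes were higher for 12 of 12, with sums of 59.8 to 466 CPM, against 90.2 to 278 CPM in controls. Lens genes were lower for 8 of 8, skeletal muscle genes for 10 of 11 and cartilage genes for 12 of 13. Osteoblast genes were higher for 6 of 7 and notochord genes for 2 of 2, while endothelium genes were split, 4 higher and 7 lower. Of the epidermis markers, pkp1.S stood at 0 in all 3 thioridazine libraries of stage 45 and near 0 in the controls. The part of these markers in the collagen and laminin values was not tested, and in whole heads fewer cells of a type and less RNA per cell cannot be told apart.

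**Figure D1:**
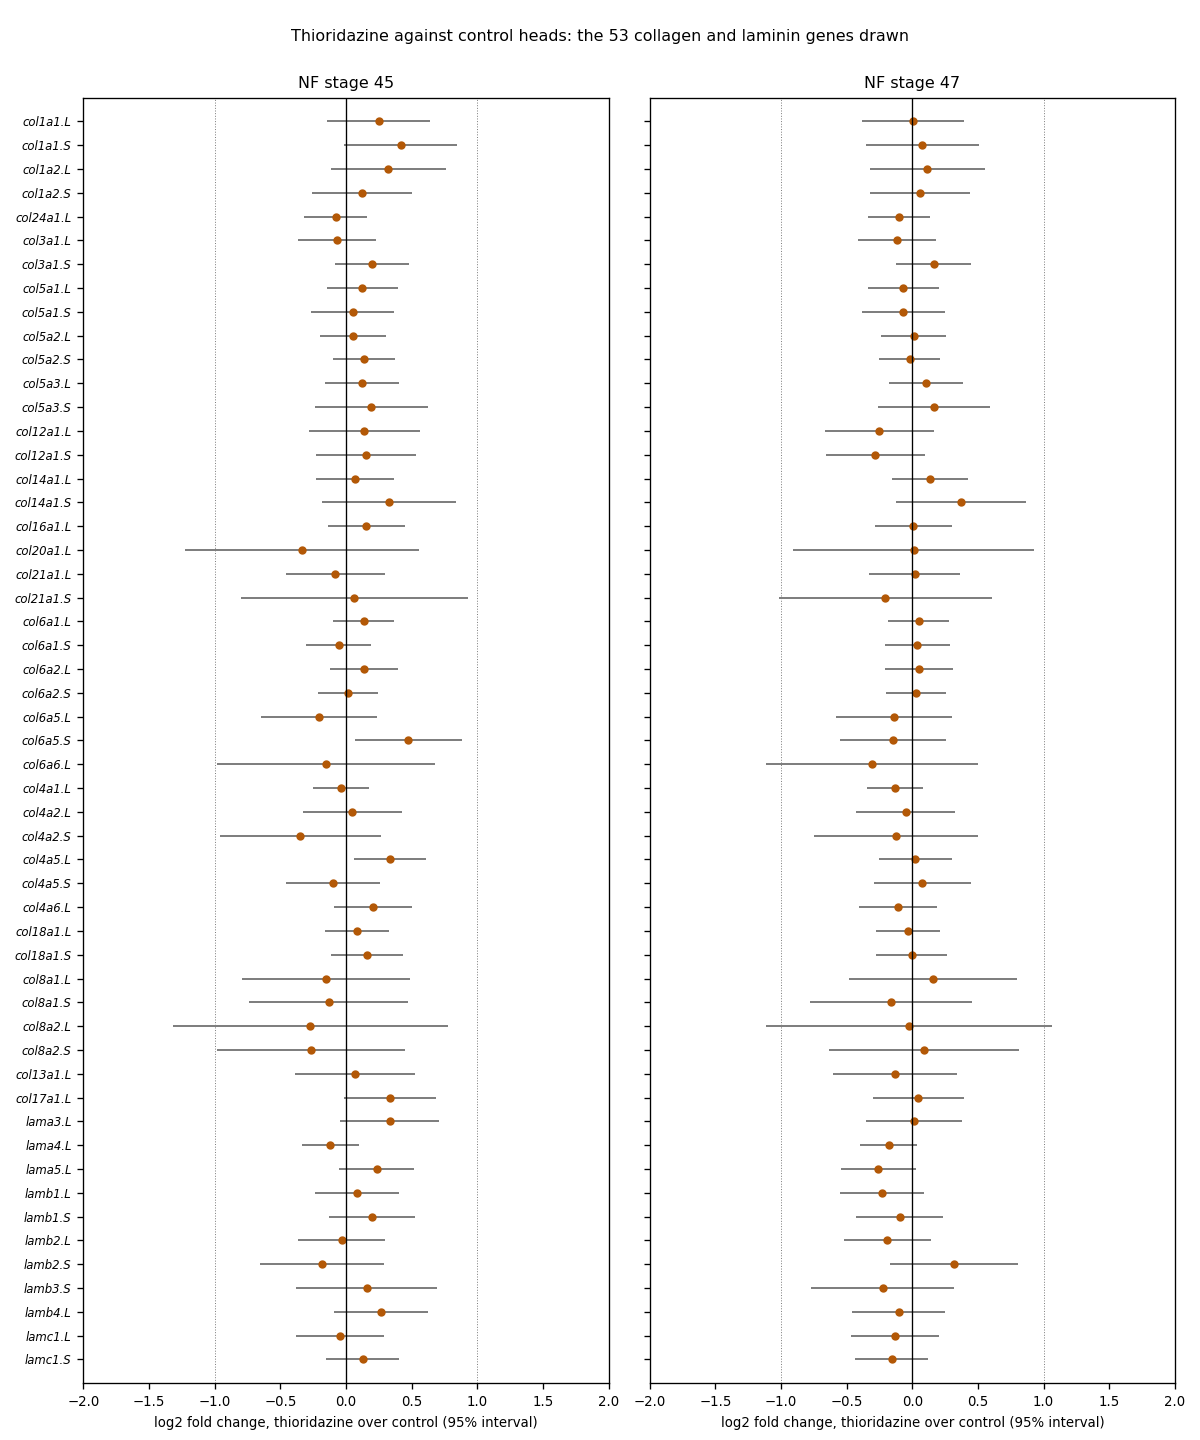
Log2 fold change of thioridazine over control heads (points) with its 95% interval (lines) for 53 of the 54 collagen and laminin genes tested, at NF stage 45 (left) and NF stage 47 (right), 3 libraries a group. Dotted lines mark a 2-fold change either way; none of the 54 passed an adjusted p of 0.05, and over all 54 the estimates of 35 genes were above 0 at stage 45, against 25 at stage 47.

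At stage 47 the members again gave no call, 0 of 54, where 0.0739% of all genes were called. None had an unadjusted p under 0.05 (3.52% of all genes did), and DESeq2 called 0 (0.212% of all genes). Estimates above 0 numbered 25 (46.3%, against 51.0% of all genes) and the median log2 fold change was -0.023, against 0.0040 over all genes. The intervals of 50 members lay within 2-fold and of 38 within 1.5-fold. Of the marker lists at this stage, again without a call, liver genes were lower in thioridazine heads for 11 of 12, with sums of 85.1 to 422 CPM, against 435 to 915 CPM in controls. Skeletal muscle genes were lower for 9 of 11, fibroblast genes higher for 8 of 10 and lens genes higher for 6 of 8, while epidermis genes were split 5 and 5.

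By smallest p, the laminin chains lama5.L and lama4.L headed the lower estimates. By size the lowest estimate was that of the type VI chain col6a6.L, at -0.31 on the log2 scale. The level of lama5.L (gene 108700926) was 53.0, 63.7 and 68.7 CPM in thioridazine libraries of stage 47, against 70.3, 70.4 and 81.1 CPM in control libraries. All 3 thioridazine values were below all 3 control values (4.82% of all genes were lower without overlap), with a log2 fold change of -0.26 (SE 0.13, edgeR adjusted p = 1.00). Its partner in the trimer, the beta chain lamb1.L, had 74.1, 82.3 and 92.8 CPM, against 102, 90.8 and 100.5 CPM in controls, and overlapped (log2 fold change -0.23, SE 0.15). For lama4.L the values were 45.0, 50.5 and 52.6 CPM, against 60.4, 51.8 and 55.7 CPM in controls, and also overlapped (log2 fold change -0.18, SE 0.10). Neither of these passed, both with an edgeR adjusted p of 1.00.

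The other lower estimates in this set were col12a1.S, a fibril-associated collagen of tendon and fascia, and col4a1.L, which pairs with col4a2 in most basement membranes. For col12a1.S the levels were 69.0, 78.3 and 83.2 CPM in thioridazine heads, against 112, 86.9 and 81.7 CPM in controls, with control replicate 1 the highest. Higher estimates were led by col14a1.S, lamb2.S, col3a1.S, col14a1.L and col5a3.S. The fibril-associated col14a1.S had 13.0, 14.3 and 8.39 CPM in thioridazine heads, against 9.98, 11.3 and 6.37 CPM in controls (log2 fold change 0.37, SE 0.23, edgeR adjusted p = 1.00). A beta chain of muscle and vessel basement membranes, lamb2.S, was the single member higher without overlap (4.78% of all genes), at 2.63, 3.36 and 2.63 CPM against 2.41, 2.36 and 2.14 CPM in controls, without a call. Its sister lamb2.L, with 88.4% of the pair's counts, had 20.6 ± 2.42 CPM in thioridazine and 23.5 ± 1.92 CPM in control heads (SD, n = 3 each). With both copies added together the log2 fold change was -0.14, without a call.

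Taking both stages together, 0 of 54 members were called (0.144% of all genes were), 1 had an unadjusted p under 0.05 (6.90% of all genes) and DESeq2 called 0 (0.501% of all genes). That member was lama4.L, with a log2 fold change of -0.15 (SE 0.070, edgeR adjusted p = 0.718). Estimates were above 0 for 28 members (51.9%, against 52.8% of all genes). The interval of every one of the 54 members lay within 2-fold, and 46 within 1.5-fold, so over both stages a change of 2-fold or more was outside the interval of each.

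The treatment effect itself was then compared between stages. No member's difference was called (0 of 54, against 0% of all genes), 2 had an unadjusted p under 0.05 (2.13% of all genes) and DESeq2 called 0 (0.0118% of all genes). The 2 were lama5.L, whose difference on the log2 scale was -0.50 (SE 0.18), and col6a5.S, with -0.62 (SE 0.26), each with an edgeR adjusted p of 1.00. Estimates were lower at stage 47 than at stage 45 for 40 of the 54 and higher for 14 (25.9%, against 49.1% of all genes), among the lower all 13 fibrillar collagen genes.

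Because libraries of the same number deviated together, the treatment was also read within pairs. At stage 45 the members higher in the thioridazine library numbered 44 in pair 1, 34 in pair 2 and 18 in pair 3, and at stage 47 they numbered 18, 31 and 29. In all, 13 members were higher in all 3 pairs of stage 45 and 5 lower in all 3, and 5 and 9 at stage 47. The shares of all genes were not counted by pair, so these counts are not read as particular to the members. With the number as a block within each stage, 14 members had an unadjusted p under 0.05 at stage 45 (25.9%, against 12.2% of all genes), and none was called (0.991% of all genes): the smallest adjusted p was 0.123, for col1a1.S with a log2 fold change of 0.39 (SE 0.11, edgeR). Over both stages 9 members had an unadjusted p under 0.05 (14.5% of all genes) and none was called (2.21% of all genes). The smallest adjusted p there was 0.0838, for col14a1.S, with a log2 fold change of 0.35 (SE 0.10).

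**Figure D2:**
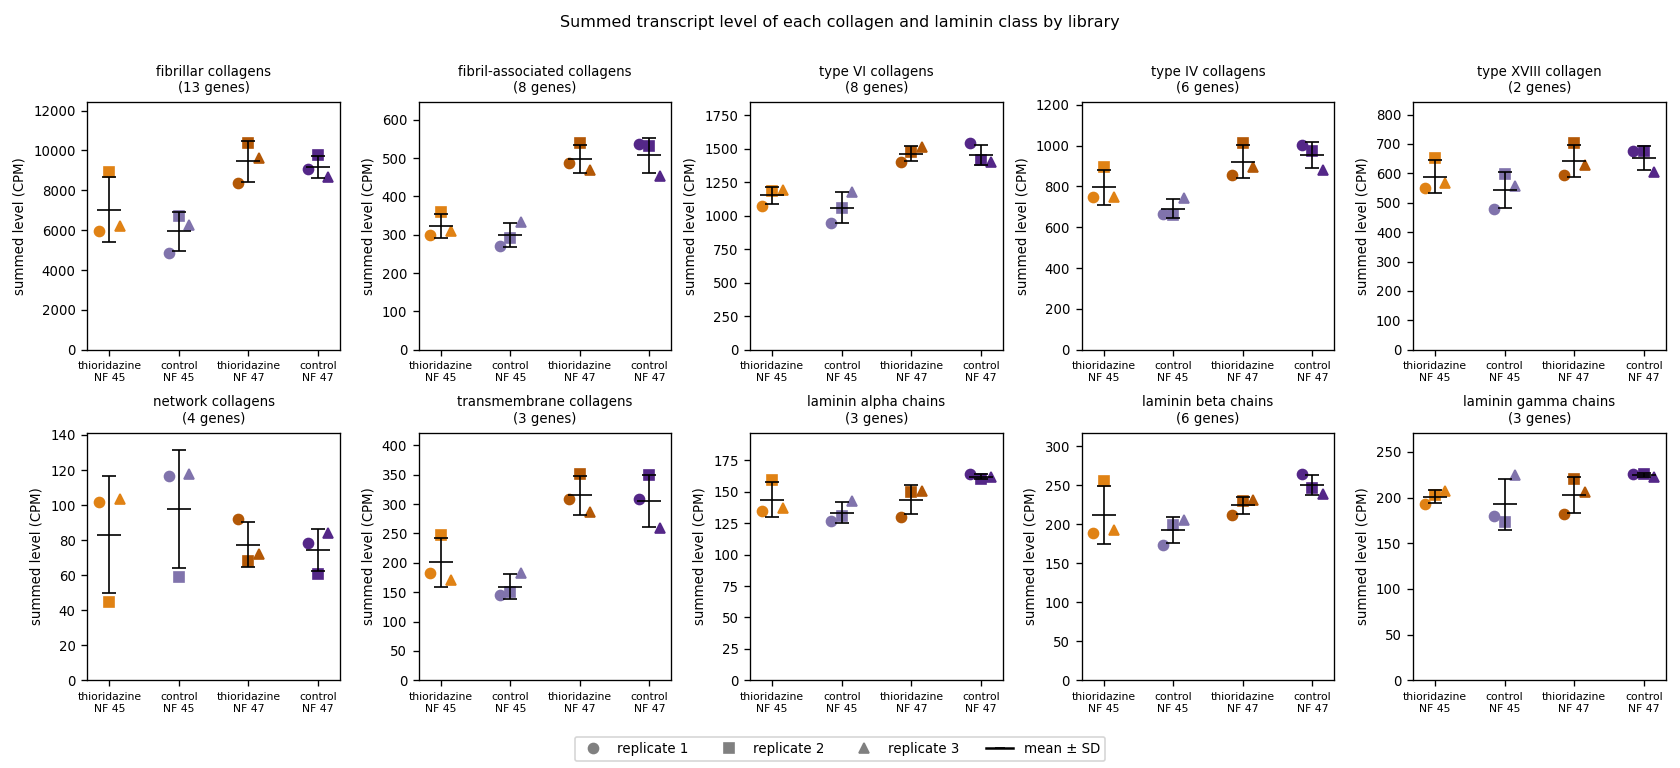
Summed level in CPM (scaled counts) of each collagen and laminin class, 1 symbol per library and mean ± SD per group (n = 3). The fibrillar collagens reached 8352 to 10349 CPM in thioridazine heads and 8676 to 9759 CPM in control heads at NF stage 47, against 5952 to 8904 and 4836 to 6720 CPM at NF stage 45, and the network collagens were lowest in both stage 45 libraries numbered 2.

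A second question was how this matrix changed as heads grew, with and without the drug. From stage 45 to stage 47 some members rose, and none fell by the test. In thioridazine heads 8 of 54 members rose (14.8%), where 4.86% of all genes were called, 2.09% higher and 2.77% lower. In control heads 18 rose (33.3%), where 6.24% of all genes were called, 3.03% higher and 3.21% lower. The largest rise was that of col21a1.L, 2.84-fold in thioridazine and 2.64-fold in control heads.

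All 8 members called in thioridazine heads were among the 18 called in control heads (100% of the first list and 44.4% of the second). At an unadjusted p under 0.05 there were 21 members in thioridazine heads (19.6% of all genes) and 33 in control heads (21.3%). DESeq2 called 11 and 25, all higher (8.91 and 9.56% of all genes called). Over the 54 members the median log2 fold change was 0.26 in thioridazine heads and 0.37 in control heads, against -0.0065 and -0.011 over all genes. Estimates were above 0 for 39 members (all genes: 49.2%) and for 43 (all genes: 48.6%). Stage 47 lay above stage 45 without overlap for 16 members in thioridazine heads (11.4% of all genes) and 31 in control heads (11.7%), and below for 1 and 4 (13.8% and 13.3%). Whether the rise was larger in controls is the difference tested above, which called no member. Of the 18, 15 had the larger estimate in controls. The 18 were picked by their calls in control heads, which favours larger control estimates, so nothing is drawn from that count.

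**Figure D3:**
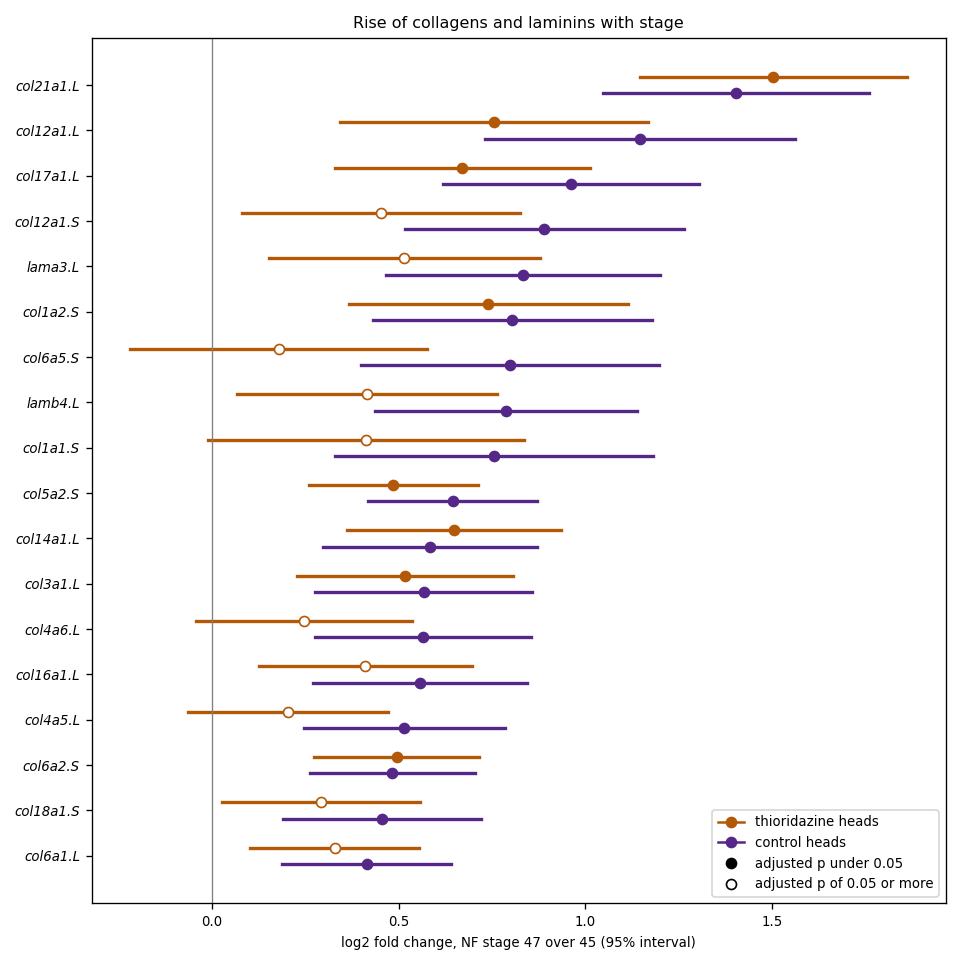
Log2 fold change from NF stage 45 to NF stage 47 (points, 47 over 45) with its 95% interval (lines) for the 18 members called in control heads, in thioridazine heads (upper point of each pair) and in control heads (lower point). Filled points passed an adjusted p of 0.05; col21a1.L has the largest rise in both, and the 8 filled points of thioridazine heads all belong to genes also called in controls.

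Of the 13 fibrillar collagen genes, 3 rose in thioridazine heads and 4 in control heads, and all 13 estimates were above 0 in both. The class summed to 8352, 10349 and 9628 CPM at stage 47, against 5952, 8904 and 6218 CPM at stage 45 in thioridazine heads. In control heads it summed to 9067, 9759 and 8676 CPM at stage 47, against 4836, 6720.2 and 6257 CPM at stage 45. Every control library of stage 47 was above every control library of stage 45, while thioridazine replicate 2 of stage 45 reached into the stage 47 range.

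The type I copy col1a2.S rose in both. It had 722, 867 and 759 CPM at stage 47, against 417, 604 and 386 CPM at stage 45 in thioridazine heads (log2 fold change 0.74, SE 0.17, edgeR adjusted p = 0.0273). The control values were 777, 819.6 and 661 CPM at stage 47, against 357, 519.7 and 417 CPM at stage 45 (log2 fold change 0.80, SE 0.18, edgeR adjusted p = 0.0173). Stages did not overlap in either.

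For col1a1.S the thioridazine libraries gave 1764, 2350.1 and 2137 CPM at stage 47, against 1259, 2154 and 1284 CPM at stage 45, and the control libraries 1857, 2173 and 1901 CPM at stage 47, against 948, 1285 and 1283 CPM at stage 45. It rose in controls (log2 fold change 0.75, edgeR adjusted p = 0.0382) and overlapped between stages in thioridazine heads (log2 fold change 0.41, edgeR adjusted p = 0.270). The difference between the effects had an interval of -0.94 to 0.26 on the log2 scale. The copies col1a1.L and col1a2.L had log2 fold changes of 0.36 and 0.47 in thioridazine heads and 0.61 and 0.68 in controls, without a call in either.

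Without the 2 stage 45 libraries numbered 2, an alternative added once the values were known, all 4 type I genes rose in both. Their log2 fold changes were then 0.59 (col1a1.L), 0.72 (col1a1.S), 0.74 (col1a2.L) and 0.97 (col1a2.S) in thioridazine heads. In control heads they were 0.73, 0.83, 0.85 and 0.96, in the same order. Each left-out library had the highest value of its group at stage 45 for all 4 genes. The larger rises thus follow in part from the choice of libraries. The number of members called became 17 in thioridazine heads (5.63% of all genes) and 22 in control heads (7.69%), where 21 rose and col8a2.S fell, with all 8 and all 18 of the first calls among them.

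Type III and type V collagens, which set fibril diameter, rose in part. The copy col3a1.L had 691, 824 and 755 CPM at stage 47, against 477, 595 and 516 CPM at stage 45 in thioridazine heads, and 832, 848 and 789 CPM, against 445, 619.8 and 602 CPM, in control heads (log2 fold changes 0.52 and 0.57, edgeR adjusted p = 0.0430 and 0.0258). The type V alpha 2 copy col5a2.S had 261, 279 and 281 CPM at stage 47, against 184, 209 and 193 CPM at stage 45 in thioridazine heads, and 311, 270.3 and 251 CPM, against 164, 179.8 and 189 CPM, in control heads. Stages did not overlap for either gene in either kind of head. For col5a2.S the log2 fold changes were 0.49 and 0.64 (edgeR adjusted p = 0.0195 and 0.00539).

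The remaining fibrillar genes were not called. Among them col5a1.L, the alpha 1 chain of type V, had log2 fold changes of 0.16 in thioridazine and 0.36 in control heads, and col5a1.S had 0.17 and 0.29. For col5a2.L they were 0.30 and 0.34, and for col3a1.S 0.36 and 0.40. All lay in the direction of the called genes.

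Fibril-associated collagens held the largest changes: 3 of 8 rose in thioridazine heads and 5 of 8 in control heads. The gene col21a1.L (gene 447719), a short collagen of fibril surfaces, had 33.8, 31.5 and 33.2 CPM at stage 47, against 10.6, 10.1 and 14.0 CPM at stage 45 in thioridazine heads. In control heads it had 34.3, 33.1 and 29.9 CPM, against 9.15, 11.8 and 15.6 CPM. The lowest stage 47 value was above the highest stage 45 value by a wide margin in both. Log2 fold changes were 1.50 (SE 0.17) and 1.40 (SE 0.17), with edgeR adjusted p = 0.000760 and 0.00126, and the call was kept with each of the 12 libraries left out in turn.

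Type XII collagen rose next. Its copy col12a1.L had 62.1, 82.5 and 94.3 CPM at stage 47, against 36.8, 60.3 and 44.5 CPM at stage 45 in thioridazine heads (log2 fold change 0.75, SE 0.19, edgeR adjusted p = 0.0405). The control values were 106, 91.3 and 87.7 CPM, against 34.1, 45.2 and 49.2 CPM (log2 fold change 1.15, SE 0.19, edgeR adjusted p = 0.00699). Control replicate 1 was the highest library of stage 47 and the lowest of stage 45, and stages did not overlap. The other copy, col12a1.S, rose in controls alone (log2 fold change 0.89, edgeR adjusted p = 0.0115); in thioridazine heads it was 0.45 with an adjusted p of 0.160, and the difference between the effects ran from -0.96 to 0.088 (95% interval).

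Type XIV collagen, a partner of decorin on fibrils, was called through col14a1.L, which had 233, 246 and 177 CPM at stage 47, against 142, 134 and 143 CPM at stage 45 in thioridazine heads, and 193, 224 and 182 CPM, against 126, 121 and 152 CPM, in control heads. It is among the 3 of the 18 whose estimate was larger in thioridazine heads (0.65, against 0.58 in controls, edgeR adjusted p = 0.0154 and 0.0217). The fifth called gene of the class in controls was col16a1.L, a minor fibril-associated chain, with 75.6 ± 9.83 CPM at stage 47, against 51.4 ± 3.98 CPM at stage 45 (SD, n = 3 each). In thioridazine heads its log2 fold change was 0.41 (edgeR adjusted p = 0.0958).

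Type VI collagen rose in 1 of 7 genes in thioridazine heads and in 3 of 7 in control heads, and all 7 estimates were above 0 in both. The alpha 2 chain col6a2.S had 289, 293 and 309 CPM at stage 47, against 215, 199.8 and 217 CPM at stage 45 in thioridazine heads, and 329, 268 and 279 CPM, against 194, 213 and 218 CPM, in control heads. Its log2 fold changes were nearly equal, 0.49 and 0.48 (edgeR adjusted p = 0.0160 and 0.0163). The alpha 1 chain col6a1.L, its neighbour in filaments, had 0.33 (edgeR adjusted p = 0.0917) and 0.41 (adjusted p = 0.0331). The copies col6a1.S and col6a2.L had 0.37 and 0.33 in thioridazine and 0.28 and 0.41 in control heads, uncalled.

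The type VI chain col6a5.S behaved less evenly. It had 185, 229 and 231 CPM at stage 47, against 149, 257 and 165 CPM at stage 45 in thioridazine heads, and 264, 237 and 214 CPM, against 116, 135 and 159.9 CPM, in control heads. In controls the stages did not overlap (log2 fold change 0.80, SE 0.19, edgeR adjusted p = 0.0238), and in thioridazine heads replicate 2 of stage 45 exceeded all of stage 47 (log2 fold change 0.18, SE 0.19, adjusted p = 0.672).

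Among basement membrane genes, type IV collagen rose in 0 of 6 genes in thioridazine heads and 2 of 6 in control heads. These were col4a5.L, with 441, 420.2 and 362 CPM at stage 47, against 294, 255 and 306 CPM at stage 45 in controls, and col4a6.L, which stands next to it in the gene table, with 350.2, 330.0 and 313 CPM, against 202, 234 and 236 CPM. Stages did not overlap for either (log2 fold changes 0.51 and 0.56, edgeR adjusted p = 0.0274 and 0.0260). In thioridazine heads they were 0.20 and 0.25 (adjusted p = 0.414 and 0.343). The sister copy col4a5.S lay the other way, with 6.95, 7.64 and 7.04 CPM at stage 47, against 7.94, 9.27 and 9.35 CPM at stage 45 in thioridazine heads. In control heads it had 6.48, 6.02 and 7.98 CPM, against 8.46, 8.74 and 11.2 CPM. It was lower without overlap in both (13.8% and 13.3% of all genes), without a call.

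The chains of the widespread type IV network were not called: col4a1.L had 129.7, 146 and 131 CPM at stage 47, against 114, 119 and 122 CPM at stage 45 in thioridazine heads, and 149, 152 and 145 CPM, against 109.5, 121 and 133 CPM, in control heads. The stages did not overlap in either, with log2 fold changes of 0.20 and 0.29 that were not called (edgeR adjusted p = 0.279 and 0.0848). Its partner col4a2.L had 53.9, 54.7 and 51.4 CPM at stage 47, against 54.0, 34.1 and 53.4 CPM at stage 45 in thioridazine heads. In control heads it had 53.9, 62.0 and 49.9 CPM, against 48.5, 35.0 and 53.2 CPM, and the libraries numbered 2 of stage 45 were the lowest in both.

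Type XVIII collagen, the proteoglycan from which endostatin is cut, was called through 1 copy. The copy col18a1.S rose in controls, with 328, 329 and 291 CPM at stage 47, against 206, 249 and 236 CPM at stage 45 (log2 fold change 0.46, SE 0.12, edgeR adjusted p = 0.0439), and had 0.29 in thioridazine heads (adjusted p = 0.208). The copy col18a1.L had 327 ± 21.5 CPM at stage 47, against 332 ± 20.3 CPM at stage 45 in thioridazine heads, and 335 ± 20.0 CPM, against 313 ± 38.8 CPM, in control heads (SD, n = 3 each). Its stages overlapped in both.

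Laminin chains gave 0 calls of 12 in thioridazine heads and 2 of 12 in control heads. The skin alpha chain lama3.L had 32.2, 35.9 and 29.3 CPM at stage 47, against 19.6, 28.6 and 20.0 CPM at stage 45 in thioridazine heads, and 33.5, 38.2 and 24.8 CPM, against 16.4, 18.3 and 19.4 CPM, in control heads. No library of stage 45 reached those of stage 47 in either, and the log2 fold changes were 0.51 (edgeR adjusted p = 0.0989) and 0.83 (adjusted p = 0.0139). The beta chain lamb4.L had 76.6, 79.4 and 60.0 CPM at stage 47, against 52.4, 65.4 and 44.3 CPM at stage 45 in thioridazine heads, with overlap, and 83.3, 88.8 and 60.2 CPM, against 47.5, 45.5 and 41.6 CPM, in control heads (log2 fold changes 0.41 and 0.79, adjusted p = 0.170 and 0.0150).

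The chains of the common laminin trimers were not called with stage. The alpha chain lama5.L had 53.0, 63.7 and 68.7 CPM at stage 47, against 59.7, 81.5 and 61.4 CPM at stage 45 in thioridazine heads, and 70.3, 70.4 and 81.1 CPM, against 55.8, 54.8 and 61.5 CPM, in control heads. Its stages overlapped in thioridazine heads and not in controls (log2 fold changes -0.13 and 0.37). The beta chain lamb1.L had 0.066 and 0.38, lamb1.S -0.25 and 0.046, and the gamma chains lamc1.L -0.12 and -0.026 and lamc1.S 0.089 and 0.37, in thioridazine and control heads in turn. Over the 12 laminin genes, 4 estimates were above 0 in thioridazine heads and 8 in control heads.

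The transmembrane collagen col17a1.L rose in both kinds of head, with 304, 348 and 282 CPM at stage 47, against 178, 245 and 165 CPM at stage 45 in thioridazine heads. In control heads it had 305, 345 and 256 CPM, against 139.7, 146 and 179 CPM. No stage 45 library reached the stage 47 range in either, with log2 fold changes of 0.67 (SE 0.16, edgeR adjusted p = 0.0283) and 0.96 (SE 0.16, adjusted p = 0.00569). The other transmembrane gene tested, col13a1.L, found at cell adhesions, had 4.19, 3.11 and 3.39 CPM at stage 47, against 5.27, 3.48 and 5.53 CPM at stage 45 in thioridazine heads. In control heads it had 3.91, 3.90 and 3.93 CPM, against 4.77, 4.41 and 4.45 CPM, lower without overlap (13.3% of all genes). It was not called in either.

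Network collagens, the type VIII chains of the cornea's inner membrane and of vessels, gave no call among 4 genes, with 3 estimates below 0 in both kinds of head. The chain col8a2.S had 50.3, 37.5 and 43.1 CPM at stage 47, against 58.7, 27.5 and 61.4 CPM at stage 45 in thioridazine heads, and 41.8, 31.9 and 49.6 CPM, against 68.8, 36.8 and 71.6 CPM, in control heads. The stage 45 libraries numbered 2 lay far below their companions in both groups. The class summed to 101, 44.6 and 103 CPM in the thioridazine and 117, 58.8 and 118 CPM in the control libraries of stage 45. With all 12 libraries col8a2.S had a log2 fold change of -0.53 in controls, without a call. Without those 2 libraries it was -0.77 (edgeR adjusted p = 0.0174). They were left out after their low network collagen values were seen, so this fall follows in part from that choice.

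The stage counts varied when single libraries were left out. In control heads the 18 calls became 6 without control replicate 1 and 10 without replicate 3 of stage 45, and 4 without replicate 1 and 6 without replicate 2 of stage 47. In thioridazine heads the 8 became 3 without replicate 1 and 1 without replicate 3 of stage 45, and 3, 1 and 2 without replicates 1, 2 and 3 of stage 47. Each of these fits had 1 library fewer, and the shares of all genes called in them are not given here. The counts are therefore not read as particular to the members, and the cause of the variation was not tested. The genes that kept their call with any library left out were col21a1.L in both kinds of head, and col5a2.S, col12a1.L and col17a1.L in controls.

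Markers of other cell types moved with stage as well. In thioridazine heads epidermis genes summed to 418 to 468 CPM at stage 47, against 379 to 451 CPM at stage 45, with 8 of 10 estimates above 0 and 1 call. That call was pkp1.S (edgeR adjusted p = 0.00592), which stood at 0 in the stage 45 thioridazine libraries. In control heads epidermis genes summed to 382 to 492 CPM, against 285 to 336 CPM, with 10 of 10 above 0 and 4 calls. Fibroblast genes summed to 1422 to 1569.6 CPM, against 1001 to 1038 CPM, and to 1081 to 1410.3 CPM, against 785 to 923 CPM. Their estimates were split in thioridazine heads, 5 above 0 and 5 below, with 4 genes called higher and 2 lower. In control heads 6 were above 0 and 4 below, with 4 called higher and 1 lower. The genes lum and dcn of this list also count as fibril partners below. In the fibroblast list lum and dcn rose while twist1, a transcription factor of mesenchyme, fell: twist1.L had a log2 fold change of -0.46 in thioridazine and -0.39 in control heads (edgeR adjusted p = 0.0172 and 0.0296). Cartilage genes were lower at stage 47 for 13 of 13 in both, with 0 and 2 calls, and lens genes fell in 6 of 8 in control heads. Liver genes were higher for 9 of 12 in thioridazine heads, with sums of 85.1 to 422 CPM at stage 47, against 59.8 to 466 CPM at stage 45. In control heads they were higher for 12 of 12, with sums of 435 to 915 CPM, against 90.2 to 278 CPM, without a call in either. Osteoblast genes were lower for 5 of 7 in thioridazine and 6 of 7 in control heads (medians -0.53 and -0.52, no call), while their summed level was 84.3 to 92.2 CPM, against 82.3 to 86.9 CPM, and 76.9 to 83.7 CPM, against 73.5 to 93.1 CPM. No gene of these lists was at 0 in every library, and the part of these tissues in the collagen and laminin values was not tested.

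**Figure D4:**
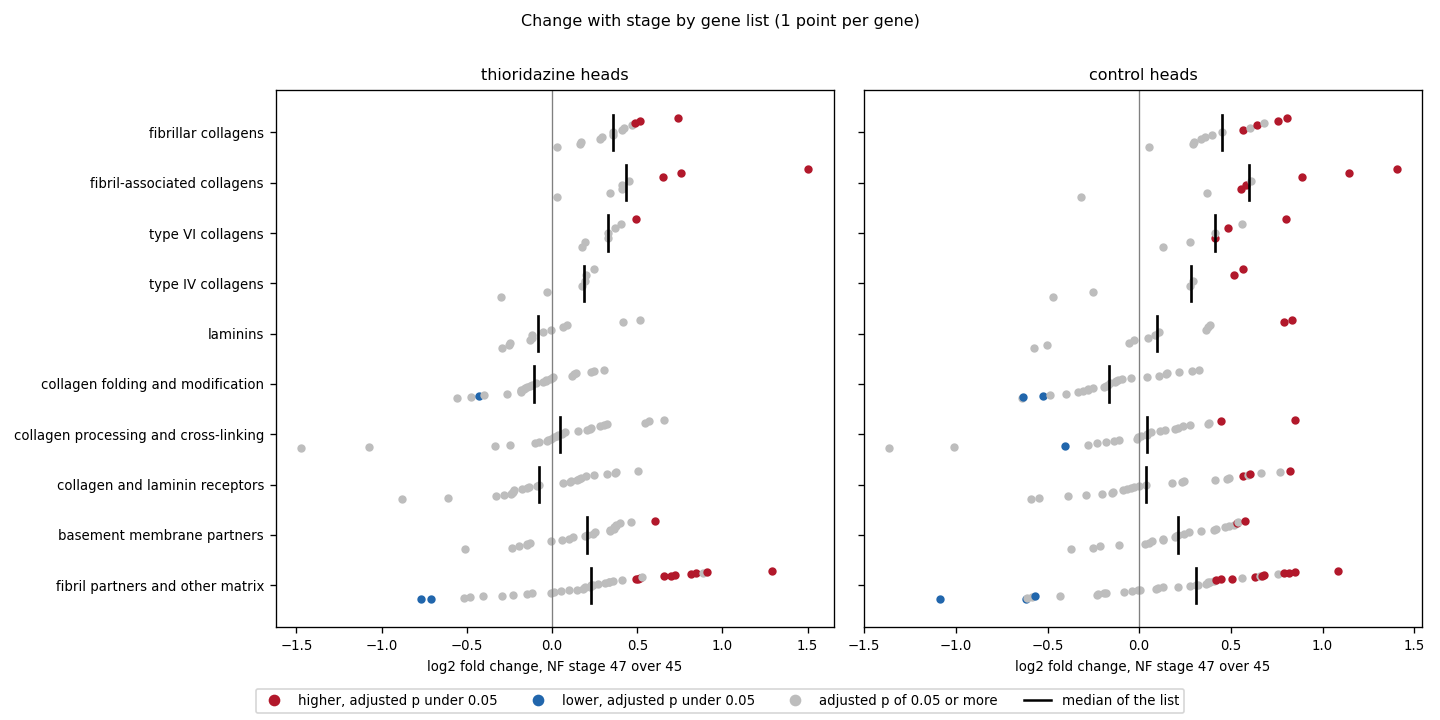
Log2 fold change from NF stage 45 to 47 (47 over 45) of each gene in the collagen and laminin classes and in the lists around them, in thioridazine heads (left) and control heads (right). Red and blue points passed an adjusted p of 0.05 and black bars are list medians; the medians of the 4 collagen classes drawn lie above 0, while the enzymes of collagen folding and modification have medians of -0.10 and -0.16.

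The genes that make and hold this matrix were counted in 5 lists, to be read against the 2.09% of all genes that rose and 2.77% that fell in thioridazine heads, and the 3.03% and 3.21% in control heads. Of 26 genes of collagen folding and modification, 0 rose with stage; 1 fell in thioridazine heads and 2 fell in control heads, with 18 and 19 estimates below 0 and medians of -0.10 and -0.16. The prolyl isomerase fkbp10.S, which helps collagen chains fold, had 273 ± 21.4 CPM at stage 47, against 367 ± 46.4 CPM at stage 45 in thioridazine heads, and 239 ± 17.1 CPM, against 344 ± 8.80 CPM, in control heads (SD, n = 3 each). It fell by 0.43 and 0.53 on the log2 scale (edgeR adjusted p = 0.0435 and 0.0165). The lysyl hydroxylase plod2.S fell in controls by 0.63 (adjusted p = 0.0468).

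Of 24 genes of processing and cross-linking, 0 were called in thioridazine heads, while 2 rose and 1 fell in controls. The cross-linking enzyme lysyl oxidase, lox.L, rose there to 44.5 ± 5.76 CPM at stage 47, against 24.6 ± 8.69 CPM at stage 45 (log2 fold change 0.85, edgeR adjusted p = 0.0458). The procollagen protease tll2.L rose by 0.45 and the oxidase loxl3.S fell by 0.40 on the log2 scale (adjusted p = 0.0435 and 0.0417).

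Receptors were called for 0 of 25 genes in thioridazine heads and 3 of 25 in control heads, all higher. Both integrin chains of the hemidesmosome's laminin receptor rose there: itga6.S to 66.7 ± 9.15 CPM at stage 47, against 37.7 ± 3.15 CPM at stage 45, and itgb4.L to 47.0 ± 7.20 CPM, against 30.9 ± 3.64 CPM (edgeR adjusted p = 0.00266 and 0.0271). Both also count as epidermis markers. The third was the collagen receptor kinase ddr1.L (log2 fold change 0.57, adjusted p = 0.0109). In thioridazine heads itga6.S had 65.3 ± 4.29 CPM at stage 47, against 50.6 ± 5.29 CPM at stage 45 (adjusted p = 0.0852).

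Basement membrane partners rose in 1 of 23 genes in thioridazine heads and 2 of 23 in control heads. The 1 was tinagl1.S, a basement membrane glycoprotein, with 19.4 ± 1.79 CPM at stage 47, against 12.7 ± 1.85 CPM at stage 45, and it rose in controls too (log2 fold changes 0.60 and 0.53, edgeR adjusted p = 0.0228 and 0.0327). Nidogen, which links laminin to type IV collagen, rose in controls as nid1.S (log2 fold change 0.58, adjusted p = 0.00750).

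Fibril partners held most of the calls around the members: of 39 genes, 10 rose and 2 fell in thioridazine heads, and 10 rose and 3 fell in control heads. Lumican, a proteoglycan that spaces fibrils, had as lum.S 399.5 ± 9.84 CPM at stage 47, against 227 ± 20.7 CPM at stage 45 in thioridazine heads, and 349.8 ± 56.5 CPM, against 165 ± 31.7 CPM, in control heads (log2 fold changes 0.82 and 1.08, edgeR adjusted p = 0.00799 and 0.00216). Decorin rose alike as dcn.S (0.72 and 0.68, adjusted p = 0.00657 and 0.00845). Against them, the tendon glycoprotein thbs4.S fell by 0.77 and 1.08 and the elastic fibre protein emilin1.L fell by 0.71 and 0.62 on the log2 scale, in thioridazine and control heads in turn.

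With treatment, 1 gene of these 5 lists was called, and only over both stages together, where 0.144% of all genes were called. That was thrombospondin thbs3.L, a matrix glycoprotein of skeletal tissue, at 89.4 ± 11.6 CPM in thioridazine and 62.2 ± 5.51 CPM in control heads of stage 45, and 73.0 ± 5.90 and 53.1 ± 4.23 CPM at stage 47 (SD, n = 3 each). Thioridazine libraries were above control libraries without overlap at both stages, as were 4.19% of all genes at stage 45 and 4.78% at stage 47. The log2 fold change over both stages was 0.49 (SE 0.081, edgeR adjusted p = 0.0240). Leaving out each of the 12 libraries in turn, the adjusted p of thbs3.L was above 0.05 in 8 cases and reached 0.0966 without control replicate 1 of stage 47. Its sister thbs3.S had log2 fold changes of -0.31 at stage 45 and 0.35 at stage 47, without a call. Folding and modification genes were above 0 in thioridazine heads for 23 of 26 over both stages, with a median of 0.11 and no call. Over all genes 52.8% were above 0, with a median of 0.0092. Estimates were above 0 for 18 of 24 processing and cross-linking genes and 17 of 25 receptors. They were above 0 for 14 of 23 basement membrane partners and 22 of 39 fibril partners.

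The duplicated genome allowed each pair of copies to be compared, though how the authors' counting treated reads that fit both copies is not given in the sources used here, so each split is uncertain. The shares are of counts, without correction for the length of either copy. Of 22 pairs, 14 had most of their counts on the .L copy, 10 had over 80% on a single copy, and 6 lay between 40 and 60%. The .L copy held 48.6% of the counts of col1a1 and 75.9% of col1a2, chains that combine in the same fibril. It held 94.9% of col14a1, 97.7% of col4a5 and 5.21% of col6a5.

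**Figure D5:**
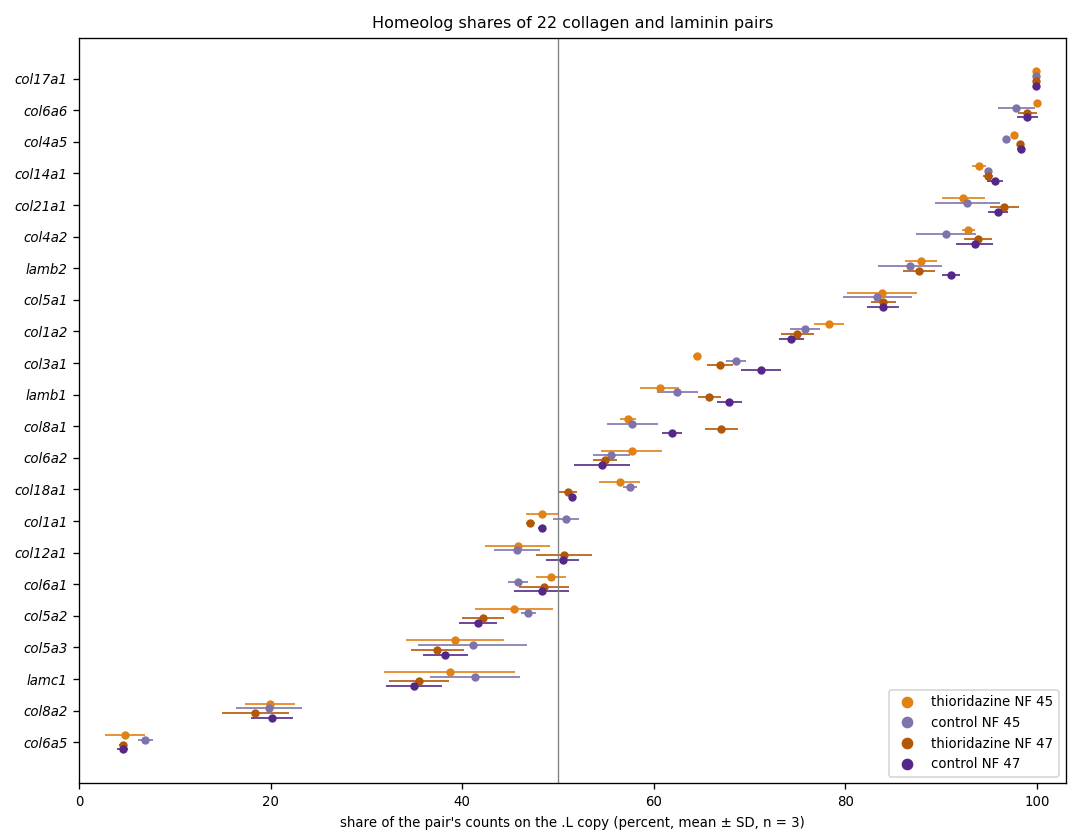
Share of each homeolog pair's counts on the .L copy in percent (mean ± SD, n = 3) in the 4 groups, for 22 collagen and laminin pairs. Pairs range from col6a5, mostly on the .S copy, to col17a1, nearly all on the .L copy, and the 4 groups of a pair lie close together beside the differences between pairs.

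For col8a1, a network collagen, the .L copy held 67.0 ± 1.72% at stage 47, against 57.3 ± 0.819% at stage 45 in thioridazine heads, and 61.9 ± 1.04%, against 57.8 ± 2.67%, in control heads (SD, n = 3 each). For col18a1 the .L copy held 51.0 ± 1.02% at stage 47, against 56.4 ± 2.16% at stage 45 in thioridazine heads, and 51.4 ± 0.245%, against 57.5 ± 0.765%, in control heads (SD, n = 3 each). For col3a1 it held 64.5 ± 0.383% in thioridazine and 68.6 ± 1.01% in control heads of stage 45, and 66.9 ± 1.40% and 71.2 ± 2.05% at stage 47. The share of col18a1 was thus lower at the later stage in both kinds of head, and that of col3a1 lower with thioridazine at both stages. None of these shares was tested. All 3 pairs were picked after their values were seen.

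With the copies of each pair added together, 34 symbols were tested, and 5 rose with stage in thioridazine heads (2.50% of all symbols) and 15 in control heads (3.39%). The 5 were col14a1, col17a1, col21a1, col5a2 and col6a2. In controls the summed type I genes rose, col1a1 by 0.67 and col1a2 by 0.70 on the log2 scale (edgeR adjusted p = 0.0471 and 0.0439). No summed member was called with treatment at stage 45 (0% of all symbols) or at stage 47 (0.0898%).

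Several members stand next to each other in the gene table, in 9 pairs. Adjacent members had like estimates in some pairs: col6a1.L and col6a2.L had log2 fold changes with stage of 0.33 and 0.33 in thioridazine heads and 0.41 and 0.41 in control heads. They had unlike ones in others: lamb4.L and its neighbour lamb1.L had 0.41 and 0.066, and 0.79 and 0.38. The kit does not keep the strand, so reads from any overlapping neighbours cannot be told apart.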

How the data were processed

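TruSeq RNA v2 libraries of whole heads, made without keeping strand, were read as single-end reads of 100 bp, per the labels' protocols. The authors deposited raw counts, a whole number of reads per gene and library, and the tools listed in the submitters' processing notes are DESeq2, HISAT2, HTSeq and Trimmomatic, with no order given. Tool versions, the build, the annotation and the treatment of reads with several matches are not given in the labels or files used here. Of 37018 gene identifiers, 33597 had a name in the Xenopus_laevis_v10.1 gene table, which served for names and neighbours alone.

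Analysis used edgeR 4.0.16 in R 4.3.3 (TMM scaling, filterByExpr, robust quasi-likelihood fit). All 12 libraries entered 1 fit with a coefficient per group, which tested 27050 genes in 6 contrasts. Benjamini-Hochberg adjustment ran over all genes of a contrast, and an adjusted p under 0.05 was called. SE is the standard error of a log2 fold change. Levels are CPM on the TMM-scaled library with no correction for gene length. Levels of different genes are therefore not compared, apart from the homeolog shares and the choice of the highest gene of each class. The fit was tested on simulated data. Alternatives were DESeq2 1.42.0, other scalings (RLE, upper quartile), other filters, only the groups compared, replicate blocks, summed homeologs and leaving out libraries.

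Members and gene lists were chosen with earlier results of these data known. Named were the main collagen and laminin chains whatever their values, the highest gene of each class, and members from 1 further set per contrast. That set held up to 10 called members by smallest p, or the 5 and 5 with the smallest p where under 10 were called. Not every gene of these sets is described for its contrast, and lamb3.S and col24a1.L are among those left out. Each list of partner genes gave up to 4 called genes per contrast, or the 1 with the smallest p, and these too are not all described. Other genes named were chosen after their values were seen. Chains such as lama1, col7a1 and col6a3, for which no row was matched by symbol, were not analysed here. The values of 1 member are not reported here, though it is counted.

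Replicate numbers were checked for pairing by correlating deviations from group means over genes. For libraries of equal number, thioridazine with control, the correlations were 0.386, 0.606 and 0.344 (stage 45) and 0.166, 0.227 and 0.471 (stage 47). Unequal numbers reached at most 0.0986 at stage 45 and 0.108 at stage 47, so equal numbers deviated together, less clearly at stage 47. Deviations from a mean of 3 libraries lower the correlations of unequal numbers, and the pairing itself was not tested. Between stages not every number exceeded 0.1.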

Additional observations from a re-analysis of the deposited data

How the results depend on the processing

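No member was called between thioridazine and control heads at stage 45, at stage 47 or over both, or in the difference between stages, under any alternative run (DESeq2, RLE and upper-quartile scaling, other filters, only the groups compared where run, replicate blocks, summed homeologs, each library left out). The counts of rises with stage kept their direction under all of these and varied in number. Leaving out each library gave 4 to 20 calls in control heads, against 18, and 1 to 11 in thioridazine heads, against 8. Each of these fits had 1 library fewer, and the cause of the variation was not tested. In thioridazine heads the replicate block gave 16, which includes all 8, the fit without both stage 45 libraries numbered 2 (added after the data were seen) gave 17, and summed homeologs gave 5 of 34 symbols. In control heads the block gave 25, upper-quartile scaling 23, DESeq2 25 and only the groups compared 13. Apart from the shares given above, the shares of all genes called under these settings and with each library left out are not given here. These counts are therefore not read as particular to the members. The block holds 1 effect per number over both stages, but numbers did not all pair between stages. Correlations of equal numbers were 0.567, 0.0546 and 0.0726 in thioridazine and 0.161, -0.0207 and 0.326 in control heads. For treatment the replicate block, which pairs libraries by number, changed no call. Scaling moved the median of all genes by less than 0.1 (log2). The cause of the changes that follow was not tested. Some estimates, not all of them close to 0, changed sign when single libraries were left out. With treatment the members' median at stage 47 ran from -0.086 to 0.0072, and at stage 45 col6a5.L from -0.44 to 0.015 and col8a2.S from -0.51 to 0.012. In control heads col4a2.S ran from -0.46 to 0.00094, col18a1.L from -0.0020 to 0.18, lamb1.S from -0.040 to 0.17 and lamc1.L from -0.18 to 0.13. In thioridazine heads col4a2.L ran from -0.0014 to 0.28, col4a2.S from -0.21 to 0.17, col18a1.L from -0.076 to 0.032, lama5.L from -0.22 to 0.035, lamb1.L from -0.028 to 0.24 and col8a2.S from -0.45 to 0.021. Under upper-quartile scaling col4a2.S became 0.010 and col18a1.L 0.020 there, and without both stage 45 libraries numbered 2 col4a2.L became -0.0015, col18a1.L 0.032 and lama5.L 0.035. Depth limits the low genes: col20a1.L and col21a1.S had around 1 CPM and wide intervals.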
